A study of Mus musculus with 6 samples.

Results

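Genes of major histocompatibility complex (MHC) class I presentation were examined in mouse liver in which the autophagy and lipid-handling gene Vmp1 was targeted in hepatocytes. The set comprised 10 genes chosen by name out of the 55536 in the table. H2-K1 and H2-D1 encode the classical class I heavy chains, and B2m encodes β2-microglobulin, their shared light chain. Tap1, Tap2 and Tapbp encode the peptide transporter and tapasin, Psmb8, Psmb9 and Psmb10 encode the catalytic subunits of the immunoproteasome, and Nlrc5 encodes the transactivator of the class I genes. Every one of the 10 names was found once, and each gene was at 9.44 TPM or more in every library. TPM is a transcript abundance corrected for transcript length, with an equal sum in every library.

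The 6 liver samples, 1 library each, came from C57BL/6 mice aged 8 to 10 weeks, and all carried the genotype floxed VMP1. The 3 samples labelled WT had received the virus AAV8-TBG-null and the 3 labelled H-VMP1 KO the virus AAV8-TBG-cre, each for 2 weeks. AAV8 is a liver-tropic adeno-associated virus given by vein, and TBG is a promoter active in hepatocytes, so other liver cells keep an intact gene by design. Separate animals are not stated for the samples of a group, so each p-value reflects variation among these samples only, and that variation may be technical.

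Class I molecules display peptides from inside the cell to CD8 T cells. The proteasome cuts the peptides, TAP carries them into the endoplasmic reticulum, and tapasin helps load them onto the heavy chain and β2-microglobulin. Interferons induce the pathway through IRF1 and NLRC5 and exchange the constitutive catalytic subunits of the proteasome for the immunosubunits. Hepatocytes hold modest class I at rest, and leukocytes and endothelial cells hold more.

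The sequences in front of the class I chains are printed because H2-K1, H2-D1 and B2m are induced through a shared set of short elements. They are RefSeq sequences on GRCm38.p6, read 5′ to 3′ on the gene's strand, and 8 of the 10 genes had an entry. Capitals mark matches on either strand to the interferon-stimulated response element core with a 2-base gap between both GAAA repeats and the shorter GAANNGAAA, the gamma-activated-site motif TTCNNNGAA, the NF-κB-type motif GGGNNTTCC, the CRE-like motif TGACG and the Y box motif ATTGG. No match shown overlaps a match of another motif.
H2-K1 upstream window, chr17:34000348-34000597, minus strand: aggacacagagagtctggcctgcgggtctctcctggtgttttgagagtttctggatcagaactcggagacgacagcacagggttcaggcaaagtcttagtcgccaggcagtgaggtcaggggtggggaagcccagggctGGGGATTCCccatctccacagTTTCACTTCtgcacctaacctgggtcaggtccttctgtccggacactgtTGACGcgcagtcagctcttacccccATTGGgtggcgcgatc
B2m upstream window, chr2:122147437-122147685, plus strand: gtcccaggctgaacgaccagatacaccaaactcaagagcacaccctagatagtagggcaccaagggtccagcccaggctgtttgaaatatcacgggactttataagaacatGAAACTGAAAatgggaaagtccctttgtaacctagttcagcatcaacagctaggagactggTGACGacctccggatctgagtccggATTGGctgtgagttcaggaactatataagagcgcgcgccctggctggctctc

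For the comparison of both heavy chains, the stretch from the NF-κB-type to the interferon-type match is given alone.
H2-K1 stretch, chr17:34000429-34000458, minus strand: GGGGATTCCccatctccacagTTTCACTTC
H2-D1 stretch, chr17:35262923-35262952, plus strand: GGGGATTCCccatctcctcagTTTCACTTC
Over these 30 bases the genes differ at 1 position, A18T, counted from 1 at the 5′ end with the H2-K1 base first. The H2-D1 window precedes the RefSeq start but lies inside an exon that GENCODE M21 annotates for H2-D1, whereas no base of the H2-K1 window lies in an annotated exon. Shifted by 60 bases, the windows before the RefSeq starts of H2-K1 and H2-D1 carried the same base at 166 of 190 positions (87.4%).

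Among 32851 upstream windows of 250 bases in the RefSeq table, the response element core was found in 2.98%, GAANNGAAA in 6.31%, TTCNNNGAA in 7.02%, GGGNNTTCC in 4.98%, TGACG in 17.8% and ATTGG in 33.8%. Of the 8 genes with an entry, H2-K1 and H2-D1 matched GAANNGAAA and GGGNNTTCC, B2m matched the response element core and Psmb8 matched TTCNNNGAA. Like that of H2-D1, the Tapbp, Psmb8, Psmb9 and Tap1 windows precede the RefSeq start but lie wholly in exons annotated in GENCODE M21. In the Psmb10 window 52 bases do. TGACG was present in 5 of the 8 and ATTGG in 6 of the 8, but the Psmb9 and Tap1 windows cover nearly the same bases on opposite strands, so their matches are 1 site of each motif counted for both genes. In H2-K1, H2-D1 and B2m the first base of TGACG lay 25 bases before the first base of ATTGG, a spacing noticed in these sequences and searched for afterwards. The same spaced pair was found in 0.0913% of all windows, belonging to 26 genes, of which 3 were H2 genes (H2-K1, H2-D1 and H2-M3). A match is a run of letters and was not tested as a binding site.

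Psmb9 and Tap1 lie head to head on chromosome 17. Their RefSeq starts are 226 bases apart, and the stretch between them around the TGACG match is shown because both genes read outward from it.
Stretch between Psmb9 and Tap1, chr17:34187458-34187487, plus strand: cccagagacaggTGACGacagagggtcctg
In GENCODE M21 the annotated Psmb9 and Tap1 genes overlap by 212 bases on opposite strands, and whether reads were counted by strand is not given in the sources used here.

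Some facts of all 6 libraries bear on every result. Genes with at least 1 TPM numbered 10835 to 11064 in the WT libraries and 12838 to 12994 in the labelled knockout, and the major urinary protein genes held 11.6 to 21.2% against 0.341 to 0.545% of the TPM. The median log2 fold change over the 12796 tested genes was 0.77 as deposited, and scaling by the median of ratios, under which the middle gene shows no change, shifted fold changes by a median of -0.83 (quantile normalization, -0.79). Vmp1 itself was at 85.2 ± 13.2 TPM in WT and 143.4 ± 11.5 TPM in the labelled knockout (SD, n = 3), so the table does not check the label, and the groups are named by label throughout. A gene-level value also counts exons left in place after Cre, and which exons are floxed is unknown here.

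All 10 genes rose in the labelled knockout as deposited, by limma on log2(TPM + 1) with Benjamini-Hochberg adjustment over all tested genes at 0.05. The background is high: 74.5% of tested genes were called higher and 10.7% lower. After median-of-ratios scaling 8 of the 10 were called higher against 35.1% of all tested genes (36.6% lower), and with quantile normalization all 10 were called higher against 35.3% (35.4% lower). Every labelled knockout library lay above every WT library for all 10 with deposited values and for 8 of the 10 with median-of-ratios scaling, as it did for 75.5% and 37.4% of all tested genes. The median log2 fold change of the 10 was 1.49 as deposited, and median-of-ratios scaling made it 0.60, where the median over all tested genes was -0.01. Fold changes as deposited ranged from 0.75 for B2m to 2.48 for Tapbp. The 10 genes together held 0.449 to 0.475% of the TPM in WT and 0.849 to 1.16% in the labelled knockout, nearly all of it H2-K1, B2m and H2-D1. In bulk liver, a change in the share of cells of a type and a change in RNA per cell cannot be told apart.

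**Figure D1:**
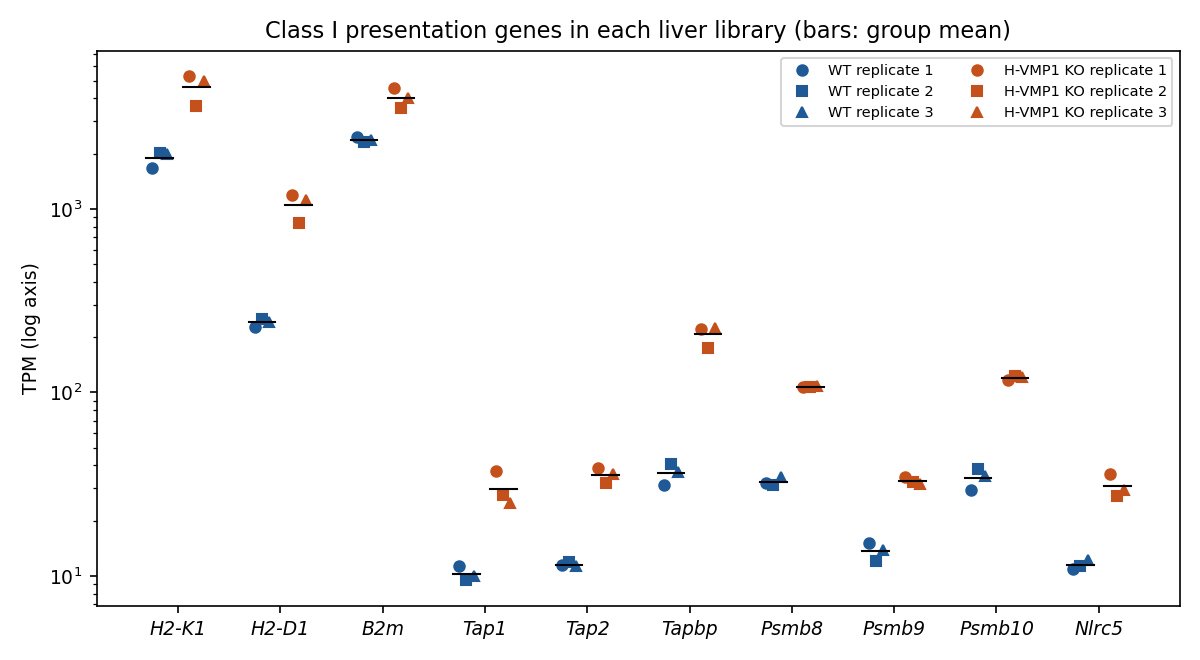
TPM (log axis) of the 10 class I presentation genes in the 3 WT libraries (blue) and the 3 libraries labelled H-VMP1 KO (orange), with circles, squares and triangles for replicates 1, 2 and 3 and bars for group means. Every orange point of a gene lies above every blue point of that gene. Within each group the 3 chain genes lie far above the other 7, while H2-D1 in WT is about level with Tapbp in the labelled knockout.

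Among the chain genes, the lesser heavy chain rose most. H2-D1 (ENSMUSG00000073411, GRCm38 chromosome 17, 35262730 to 35267499) was at 228, 252 and 243 TPM in the WT libraries against 1191, 833 and 1111 TPM in the labelled knockout. Its groups lay far apart, with labelled knockout replicate 2 the lowest of its group. The log2 fold change of H2-D1 was 2.10 ± 0.14 (SE), with limma adjusted p = 9.8e-07 as deposited. After median-of-ratios scaling H2-D1 was still higher, by 1.16 with adjusted p = 1.0e-04.

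H2-K1 (ENSMUSG00000061232, chromosome 17, 33996017 to 34000347, minus strand) was the most abundant heavy chain gene in every library. It was at 1670.2, 2004 and 1985 TPM in WT against 5295, 3614 and 4946 TPM in the labelled knockout, where it ranked between 25 and 32 among all genes. Again the groups did not overlap and replicate 2 was the lowest of the labelled knockout. H2-K1 rose by 1.28 ± 0.17 on the log2 scale (limma adjusted p = 6.3e-05). After median-of-ratios scaling the groups overlapped and its value was 0.33 with adjusted p = 0.0859, while quantile normalization gave 1.69 with adjusted p = 5.4e-05. The call for H2-K1 therefore depends on the scaling between libraries.

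B2m (ENSMUSG00000060802, chromosome 2, 122147686 to 122153083) was at 2448, 2327 and 2363 TPM in WT against 4528, 3523 and 4015 TPM in the labelled knockout. Its log2 fold change as deposited, 0.75 ± 0.13 with limma adjusted p = 4.9e-04, lay at the median of all tested genes: 48.8% of them had a smaller fold change. Scaling turned its direction. With median-of-ratios scaling B2m was at -0.19 with adjusted p = 0.169 and overlapping groups, and with quantile normalization it was at 1.10 with adjusted p = 9.3e-05.

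Ratios of TPM within a library are the same under any single scaling factor per library, though not under quantile normalization. The ratio of B2m to the sum of H2-K1 and H2-D1 was 1.29, 1.03 and 1.06 in WT and 0.698, 0.792 and 0.663 in the labelled knockout, so B2m transcript exceeded the sum of these 2 heavy chain genes in WT and fell short of it in the labelled knockout. Other heavy chain genes are not in that sum, and they held 1773 to 1946 TPM in WT, most of it H2-Q10. The ratio of H2-K1 to H2-D1 was 7.33, 7.96 and 8.17 in WT and 4.45, 4.34 and 4.45 in the labelled knockout. Groups did not overlap in either ratio. The two-sided exact permutation p was 0.1 for each, the smallest that 3 libraries against 3 can give (0.117 adjusted over 7 ratios). With quantile normalization the log2 fold changes of H2-K1 and H2-D1 were 1.69 and 1.72, so the fall of their ratio was not seen there.

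H2-K1 and H2-D1 are near-identical in parts, and their split rests on how the authors' quantifier shared reads. Of the 50-base windows of the annotated H2-K1 transcripts, 9.63% also occurred in transcripts of other genes, among them H2-Q7, H2-Q10 and H2-D1. For H2-D1 the share was 12.8%, and B2m shared none (0 of 811). Single values of the heavy chain genes are uncertain for this reason. These shares count windows of the annotated sequence and do not measure the size of the error in TPM.

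Tapbp rose most of the 10. Tapbp (ENSMUSG00000024308, chromosome 17, 33915899 to 33929292), which encodes tapasin, was at 31.4, 40.8 and 37.0 TPM in WT against 222.6, 174.4 and 225.5 TPM in the labelled knockout. All labelled knockout libraries were more than 4 times the highest WT library, and replicate 2 was again the lowest. The log2 fold change of Tapbp was 2.48 ± 0.14 with limma adjusted p = 2.5e-07, and 601 of the tested genes had a larger one. It stayed higher after median-of-ratios scaling (1.55, adjusted p = 1.7e-05). Zbtb22, which overlaps Tapbp on the same strand in the annotation, was at 5.21 to 6.87 TPM in WT and 9.59 to 10.7 TPM in the labelled knockout.

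Both transporter subunits rose by similar amounts. Tap2 (ENSMUSG00000024339, chromosome 17, 34203527 to 34216321) was at 11.4, 11.9 and 11.3 TPM in WT against 38.7, 32.0 and 36.0 TPM in the labelled knockout. Tap1 (ENSMUSG00000037321, chromosome 17, 34187553 to 34197225) was at 11.2, 9.44 and 10.0 TPM in WT against 37.0, 27.5 and 25.1 TPM in the labelled knockout. The groups of neither gene overlapped, and Tap1 varied more within the labelled knockout than Tap2. Log2 fold changes were 1.54 ± 0.10 for Tap2 and 1.44 ± 0.15 for Tap1 (limma adjusted p = 7.4e-07 and 1.0e-05), and 0.65 and 0.55 after median-of-ratios scaling (adjusted p = 1.2e-04 and 0.0091).

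The ratio of Tap1 to Tap2 was 0.889 ± 0.097 in WT and 0.838 ± 0.131 in the labelled knockout (SD, n = 3 each), with overlapping groups and a two-sided exact permutation p of 0.6. Its log2 difference was -0.09 and turned to 0.03 without labelled knockout replicate 3. Against tapasin the transporter fell behind. The ratio of the sum of Tap1 and Tap2 to Tapbp was 0.722, 0.522 and 0.576 in WT and 0.340, 0.341 and 0.271 in the labelled knockout, with no overlap (exact permutation p = 0.1, two-sided, adjusted 0.117).

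The 3 immunosubunit genes rose with little spread inside the labelled knockout. Psmb8 (ENSMUSG00000024338, chromosome 17, 34197721 to 34201454), the chymotrypsin-like subunit also called LMP7, was at 32.0, 31.3 and 34.5 TPM in WT against 106.9, 107.5 and 107.6 TPM in the labelled knockout. Psmb10 (ENSMUSG00000031897, chromosome 8, 105935735 to 105938444, minus strand), the trypsin-like subunit MECL-1, was at 29.3, 38.1 and 34.97 TPM and at 116.6, 122.1 and 120.6 TPM, WT first. Psmb9 (ENSMUSG00000096727, chromosome 17, 34181987 to 34187764, minus strand), the subunit LMP2, was lower, at 15.1, 12.1 and 13.8 TPM in WT and 34.4, 32.6 and 31.8 TPM in the labelled knockout. No gene of the 3 had overlapping groups, and the labelled knockout libraries lay close together in each.

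The log2 fold changes were 1.79 ± 0.11 for Psmb10, 1.69 ± 0.09 for Psmb8 and 1.22 ± 0.11 for Psmb9, with limma adjusted p of 5.2e-07, 1.9e-07 and 3.7e-06. After median-of-ratios scaling they were 0.86, 0.76 and 0.31 (adjusted p = 2.0e-04, 2.1e-04 and 0.0335). Psmb9 thus moved less than Tap1, its head-to-head neighbour, on each of these scales, and the difference between the 2 genes was not tested.

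Set against the constitutive subunits they replace, the immunosubunits differed in the size of the change, though the ratios were not tested against each other. Psmb10 went from 0.293, 0.360 and 0.359 of the TPM of Psmb7 in WT to 1.08, 1.05 and 1.08 in the labelled knockout, a 3.18-fold rise of the ratio that brought both genes to about the same level. The ratio of Psmb9 to Psmb6 was 0.0871, 0.0624 and 0.0806 in WT and 0.143, 0.122 and 0.127 in the labelled knockout (1.72-fold). With quantile normalization the log2 fold changes of Psmb9 and Psmb6 were 0.45 and 0.16, closer together than as deposited (1.22 and 0.49). The ratio of Psmb8 to Psmb5 was 0.374, 0.345 and 0.394 in WT and 0.456, 0.423 and 0.422 in the labelled knockout, a 1.17-fold difference that was not seen with quantile normalization (1.05 for Psmb8 and 1.04 for Psmb5 on the log2 scale). The groups did not overlap in any of the 3, and each had a two-sided exact permutation p of 0.1 (adjusted 0.117). The transcript of the constitutive partner stayed the more abundant for Psmb8 and Psmb9 in every library.

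The constitutive partners also differed from each other. Psmb5 itself rose from 87.9 ± 2.55 to 247.9 ± 11.5 TPM (SD, n = 3), by 1.48 on the log2 scale with limma adjusted p = 5.4e-07. Psmb6 was at 179.3 ± 13.1 and 252.4 ± 13.6 TPM, higher by 0.49 as deposited and lower (-0.45) after median-of-ratios scaling. Psmb7 was at 101.1 ± 4.35 and 112.1 ± 4.37 TPM (log2 fold change 0.15, adjusted p = 0.152 as deposited), and lower (-0.79) after median-of-ratios scaling.

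**Figure D2:**
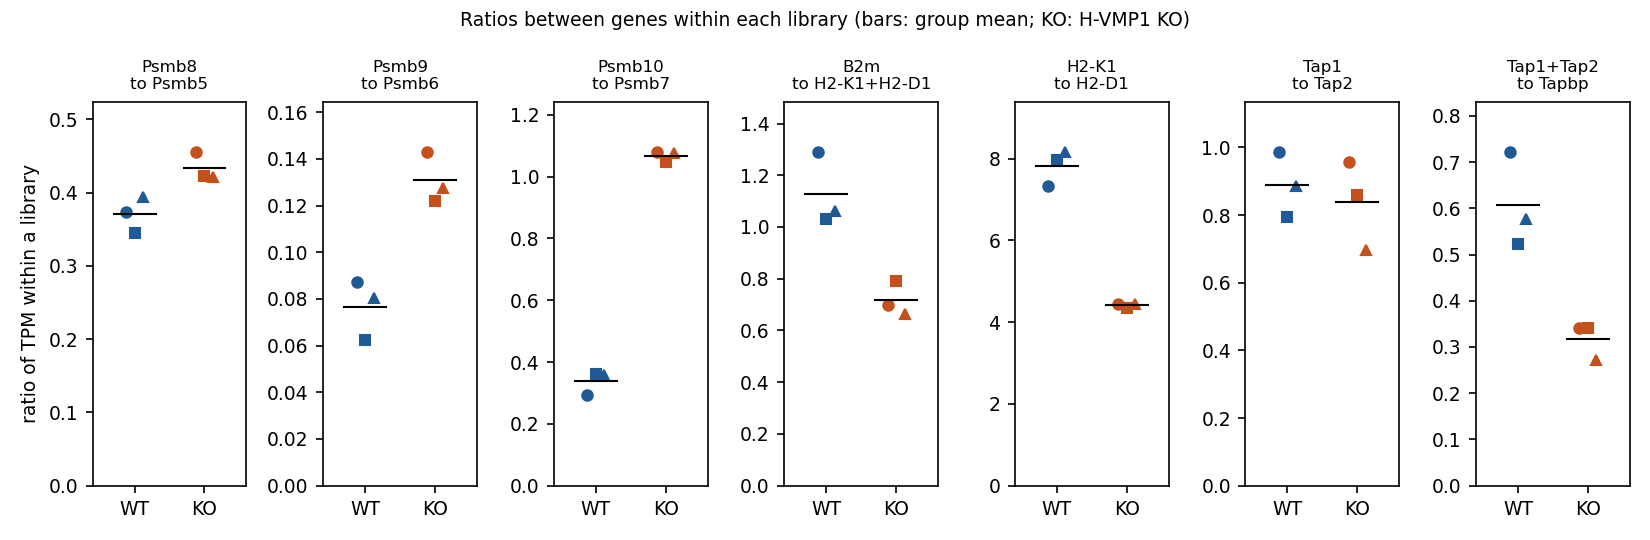
Ratios of TPM between genes within each library, 1 panel per ratio with its own linear axis from 0, for WT (blue) and H-VMP1 KO (orange), with circles, squares and triangles for replicates 1, 2 and 3 and bars for group means. The ratio of Tap1 to Tap2 is the panel with overlapping groups, and Psmb10 to Psmb7 shows the widest gap, from at most 0.360 to at least 1.05.

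Nlrc5 (ENSMUSG00000074151, chromosome 8, 94434356 to 94527272), whose protein binds class I promoters through the factors of the X and Y boxes, was at 10.9, 11.4 and 12.2 TPM in WT against 35.7, 27.3 and 29.3 TPM in the labelled knockout. It rose by 1.34 ± 0.12 on the log2 scale (limma adjusted p = 4.2e-06) and by 0.44 after median-of-ratios scaling (adjusted p = 0.00628). Its size was close to that of Tap1 and H2-K1 as deposited.

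**Figure D3:**
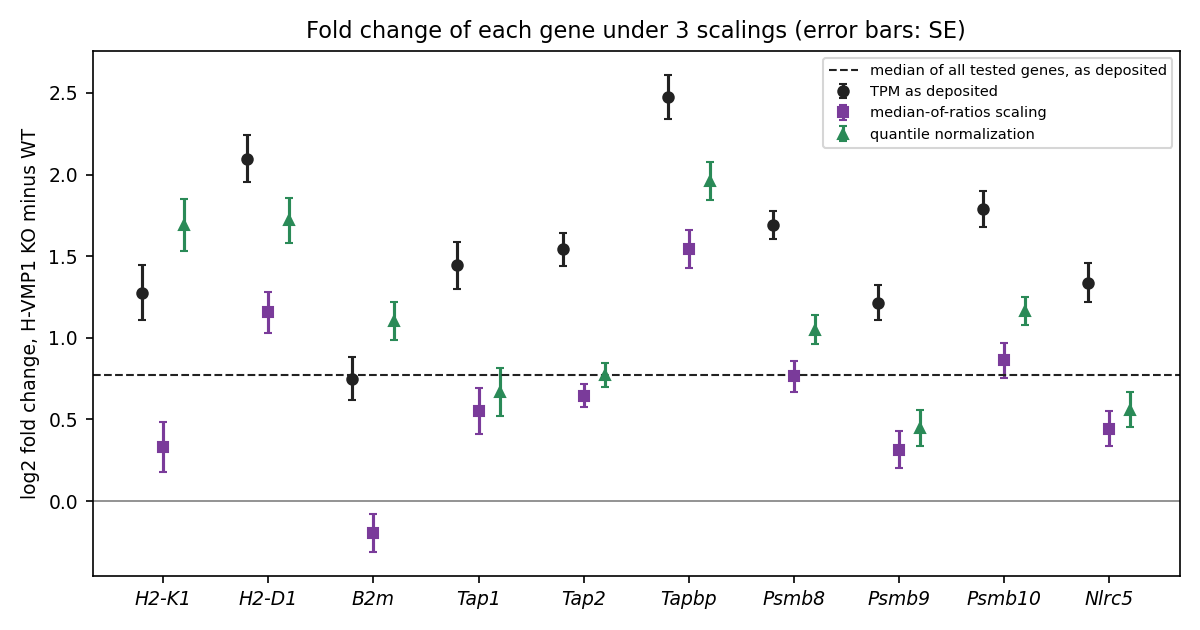
Log2 fold change (H-VMP1 KO minus WT, on the log2(TPM + 1) scale) of each gene with TPM as deposited (circles), median-of-ratios scaling (squares) and quantile normalization (triangles), with SE as error bars. The dashed line is the median of all tested genes as deposited, 0.77, and B2m is the gene whose value crosses 0, at -0.19 with median-of-ratios scaling.

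Within the labelled knockout the libraries were ordered alike for many of the genes. Replicate 1 was the highest of its group for 7 of the 10 and replicate 2 the lowest for 6 of the 10. The factors by which median-of-ratios scaling divides these libraries, taken from the whole table, had the same order (1.45, 1.335 and 1.405). How often other genes share this order was not counted. Summed macrophage and monocyte markers were 1212, 877 and 1192 TPM in labelled knockout replicates 1, 2 and 3, so that replicate 2 was lowest there too. Most leukocyte lists had replicate 2 highest instead, with pan-leukocyte markers at 232.8, 239.6 and 210.2 TPM and T cell markers at 15.4, 22.8 and 13.6 TPM. NK, B cell, dendritic cell and neutrophil markers were also highest in replicate 2, as was the class II gene H2-Aa (84.0, 119.1 and 78.4 TPM). Endothelial markers were lowest in replicate 2 (174.2, 140.1 and 185.4 TPM), and stellate cell and cholangiocyte markers were highest in it. Whether the marker level has a part in the class I values was not tested.

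Most other class I genes that could be tested were higher too, with a wider range. Of 31 listed names 27 were in the table, 10 were listed at 0 in every library, and 14 were tested. Of the 14, 6 were under 1 TPM in at least 1 WT library and passed the filter only with their labelled knockout values: H2-Q1, H2-Q2, H2-T10, H2-T24, H2-Bl and H2-M3. The filter favours a rise in such genes, and 2 of the 6 (H2-Q2 and H2-T24), under 1 TPM in every WT library, had to differ. The groups of H2-Bl overlapped. The list's counts and medians are therefore a description only. Among the 14, 13 rose and 0 fell as deposited (median 1.79), and 11 were higher and 1 lower after median-of-ratios scaling (median 0.97). The background was 74.5% of all tested genes higher as deposited, and 35.1% higher and 36.6% lower after that scaling. H2-Q1 was at 0.74, 1.03 and 0.64 TPM in WT and 37.9, 31.7 and 55.8 TPM in the labelled knockout. H2-T22, a non-classical gene, rose from 54.6 ± 7.10 to 564 ± 129 TPM, and its near relative H2-T10 from 1.02 ± 0.19 to 15.9 ± 4.10 TPM. H2-Q4 rose by 2.31 and H2-Q7 by 1.70 on the log2 scale.

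H2-T23, which encodes Qa-1, the ligand of the NK receptor CD94/NKG2A, rose from 99.2 ± 7.47 to 241.5 ± 7.42 TPM (1.28, limma adjusted p = 1.9e-06, and 0.34 after median-of-ratios scaling). The gene not called as deposited was H2-Q10, a secreted class I chain made by hepatocytes. H2-Q10 was at 1561, 1659 and 1508 TPM in WT against 1777, 1925 and 1811 TPM in the labelled knockout (log2 fold change 0.22 ± 0.11, adjusted p = 0.0942). It was called higher without WT replicate 2 (adjusted p = 0.0458) and lower after median-of-ratios scaling (-0.72, adjusted p = 4.4e-04). With quantile normalization H2-Q10 was called higher (0.33, limma adjusted p = 0.0247) and H2-Bl lower (-0.48, adjusted p = 0.0176). Which gene departs from the others therefore depends on the scaling. Close sequence among these genes makes single values uncertain here as well.

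Class I-like genes outside the H2 complex showed no common direction. Of 8 tested, 4 rose, 1 fell and 3 did not pass the test, with a median of 0.57, below that of all tested genes. After median-of-ratios scaling 4 were higher and 4 lower. All tested genes were higher in 74.5% as deposited, and higher in 35.1% and lower in 36.6% after that scaling. Procr, the protein C receptor of endothelium, was at 0.29 to 0.36 TPM in WT and 14.5 ± 3.54 TPM in the labelled knockout (SD, n = 3). Because Procr was under 1 TPM in every WT library, it was tested only through its higher values. The NKG2D ligand gene Raet1e rose by 1.35, while Raet1d fell by 1.58 on the log2 scale (limma adjusted p = 0.00535).

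The chaperones and peptidases around the loading complex were divided. Of 9 tested, 8 rose and 1 fell as deposited, and 1 was higher and 4 lower after median-of-ratios scaling. Of all tested genes 74.5% were higher as deposited, and 35.1% were higher and 36.6% lower after that scaling. The counts are no result about the list. Calreticulin (Calr) fell from 685.5 ± 89.3 to 474.4 ± 35.1 TPM (log2 fold change -0.53, limma adjusted p = 0.00353). Canx, its membrane-bound relative, rose by 0.49 as deposited and was lower (-0.44) with median-of-ratios scaling. Pdia3 (ERp57), at 0.27 with adjusted p = 0.0485, lost the call without any 1 of 5 libraries (adjusted p from 0.0705 to 0.138) and kept it without WT replicate 3. It was lower (-0.67) after median-of-ratios scaling.

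The trimming peptidase Erap1 rose by 1.18 and the tapasin-related Tapbpl by 0.96 as deposited, and neither was called after median-of-ratios scaling (0.27 and 0.09). With quantile normalization Erap1 was called higher (0.46, limma adjusted p = 0.0057) and Tapbpl was not (0.17, adjusted p = 0.0679). Thop1, a cytosolic peptidase, rose from 3.45 ± 0.308 to 18.4 ± 3.47 TPM and stayed higher after median-of-ratios scaling (1.29, adjusted p = 3.2e-05).

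Genes of the proteasome activator rose beside the immunosubunits. Psme1 and Psme2, which encode both subunits of the interferon-inducible PA28 ring, went from 132.9 ± 5.25 to 494.2 ± 54.6 TPM and from 117.6 ± 3.70 to 334 ± 19.4 TPM. Their log2 fold changes were 1.88 and 1.496 as deposited, and 0.94 and 0.56 when scaled by the median of ratios, with all 4 called. The assembly chaperone gene Psmg4 rose by 1.65. All 10 activator and assembly genes were called higher as deposited, against 5 higher and 3 lower after median-of-ratios scaling. The shares over all tested genes were 74.5% higher as deposited, and 35.1% higher and 36.6% lower after that scaling.

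Constitutive core subunits without a catalytic site were also higher as deposited. All 11 were called higher as deposited, with log2 fold changes from 0.41 to 0.94 and a median of 0.65, under the 0.77 of all tested genes. The largest were Psma7 (0.94), Psma1 (0.88) and Psmb2 (0.83), against 1.22 for Psmb9, the lowest immunosubunit value. With quantile normalization Psma7 (0.49) was above Psmb9 (0.45), and the difference between the lists was not tested. After median-of-ratios scaling 7 of the 11 were lower and 0 higher, whereas quantile normalization left 6 higher and 0 lower. Shares higher among all tested genes were 74.5% as deposited, 35.1% after median-of-ratios scaling (36.6% lower) and 35.3% with quantile normalization (35.4% lower).

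Of the factors that act on class I promoters, 17 of 19 tested rose and 2 did not pass the test as deposited, against 5 higher and 8 lower after median-of-ratios scaling. These counts stand beside 74.5% higher of all tested genes as deposited, and 35.1% higher and 36.6% lower after that scaling, and are no result about the list. Irf1, an interferon-induced activator of these genes, was at 14.1, 10.11 and 11.2 TPM in WT against 50.6, 31.5 and 33.9 TPM in the labelled knockout. Its log2 fold change was 1.61 ± 0.19, with 0.71 after median-of-ratios scaling (limma adjusted p = 6.3e-05 and 0.0108). Irf8, a factor of myeloid and B cells, rose by 2.54 and Nfkb1 by 1.65 on the log2 scale. Rfx5, a subunit of the X box factor that NLRC5 works through, rose by 0.81 as deposited, near the median of all genes, and was at 0.03 after median-of-ratios scaling (limma adjusted p = 0.824).

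Upstream of these factors, interferon transcripts were near 0. Ifng was at 0.00, 0.03 and 0.00 TPM in WT and 0.05, 0.10 and 0.10 TPM in the labelled knockout. Ifnb1 was listed above 0 in 1 library, labelled knockout replicate 2 (0.11 TPM), and Ifna2, Ifna4, Ifnl2 and Ifnl3 were listed at 0 in every library. Receptors were higher. Ifngr1, the ligand-binding chain of the interferon-gamma receptor, rose from 6.56 ± 0.753 to 57.5 ± 12.4 TPM (2.93 ± 0.16, limma adjusted p = 3.2e-07), and Ifngr2 rose by 1.65 on the log2 scale. Usp18, a feedback gene of interferon signalling, rose by 2.20, and Socs1 was at 0.04 to 0.10 TPM in WT and 0.30 to 0.56 TPM in the labelled knockout, too low to be tested. All 12 tested genes of this list rose as deposited, and 8 were higher and 0 lower after median-of-ratios scaling. Of the 12, Tnf was at 0.02 to 0.04 TPM in WT and was tested only through its higher values. Over all tested genes 74.5% were higher as deposited, and 35.1% higher and 36.6% lower after that scaling.

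Receptors listed for class I binding also stood higher where they could be tested. Lilrb4a, an inhibitory receptor of myeloid cells for which class I is not an established ligand, rose from 3.80 ± 0.46 to 101.9 ± 22.1 TPM (log2 fold change 4.405 ± 0.153). Pirb, a myeloid receptor that binds class I, rose by 2.53, and Klrd1, the CD94 chain that pairs with NKG2A, was at 0.10 to 0.18 TPM in WT and 2.25 to 3.63 TPM in the labelled knockout. The co-receptor Cd8a was at 0.01 to 0.08 TPM and 0.49 to 0.88 TPM, WT first. Of the 14 genes listed 3 were tested, Klrd1 and Pirb only through their labelled knockout values, and all 3 rose, also when scaled by the median of ratios. Among all tested genes 74.5% rose as deposited and 35.1% when so scaled.

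Class II presentation genes were also higher. H2-Aa, H2-Ab1 and H2-Eb1 rose by 2.79, 2.81 and 2.83 on the log2 scale. All 9 tested rose as deposited and by median of ratios, against 74.5% and 35.1% of all tested genes. H2-DMb2, H2-Oa and H2-Ob, the 3 of the 9 under 1 TPM in every WT library, were tested only through their higher values and rose by 1.03, 1.11 and 0.95. Their regulator Ciita was at 0.06 to 0.12 TPM in WT and 0.75 to 1.06 TPM in the labelled knockout, below Nlrc5 in every library. Medians were 2.53 for class II and 1.49 for the 10 class I presentation genes as deposited, and the difference between the lists was not tested.

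**Figure D4:**
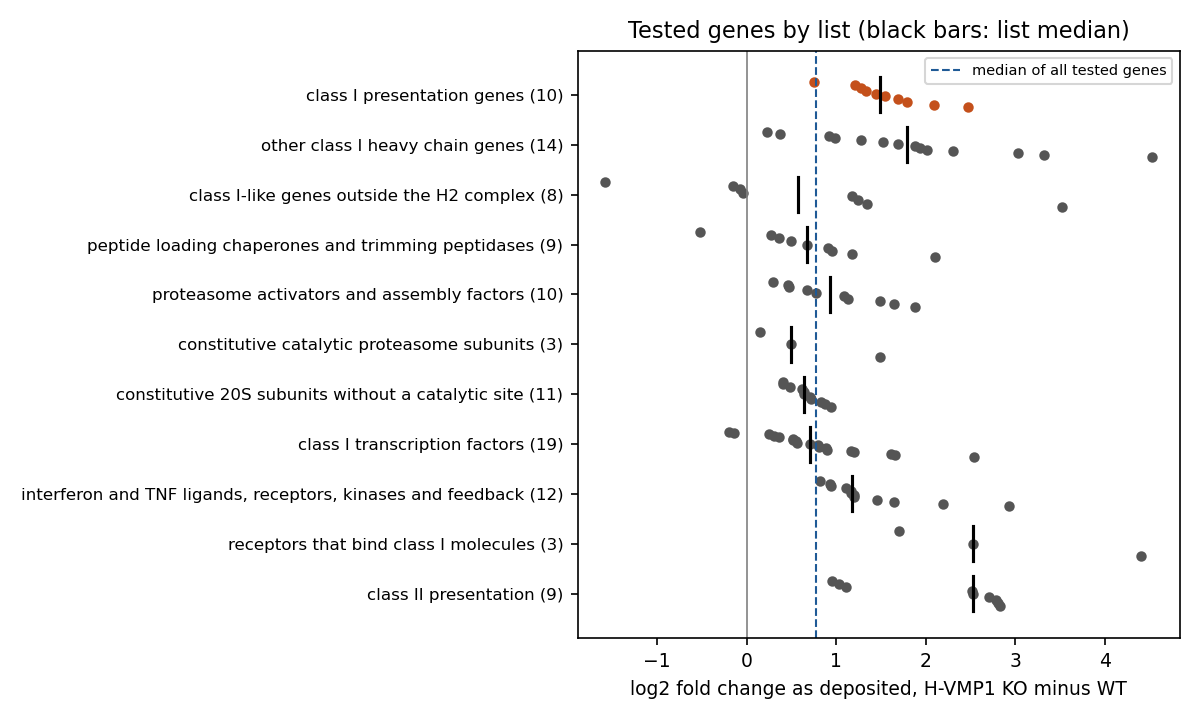
Log2 fold change as deposited of each tested gene, by list, with the number tested in parentheses, black bars for list medians, a dashed line for the median of all tested genes (0.77) and a grey line at 0. The 10 class I presentation genes (orange) have a median of 1.49, the constitutive core subunits without a catalytic site lie from 0.41 to 0.94, and class II genes have a median of 2.53.

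Markers of other cells rose in the same libraries. The counts given first are as deposited, where 74.5% of all tested genes were called higher and 10.7% lower. Pan-leukocyte markers summed to 13.5 to 21.2 TPM in WT and 210.2 to 239.6 TPM in the labelled knockout, and 8 of 8 rose. Macrophage and monocyte markers summed to 119.7 to 191 and 877 to 1212 TPM, with 13 of 14 higher. Endothelial markers summed to 52.1 to 59.5 and 140.1 to 185.4 TPM, with 10 of 10 higher. After median-of-ratios scaling 7 of these 10 were higher, against 35.1% of all tested genes. The pan-leukocyte, macrophage and stellate cell counts were the same after that scaling. Cholangiocyte markers summed to 25.8 to 38.3 and 131.3 to 182.3 TPM. Of 5 tested, 3 of them under 1 TPM in every WT library, 4 were higher, and 4 were higher and 1 lower after scaling. T cell markers summed to 2.12 to 2.92 and 13.6 to 22.8 TPM, with 5 of 12 tested and all 5 higher, and 0 of the 12 at 0 in every library. NK and cytotoxic cell markers summed to 1.29 to 1.64 and 13.2 to 17.4 TPM, and dendritic cell markers to 2.06 to 2.58 and 18.6 to 23.8 TPM. Every tested T cell, NK, B cell and dendritic cell marker was under 1 TPM in all WT libraries, so those counts hold only genes that had to differ. The same holds for 5 of the 14 macrophage and monocyte markers, and 4 of the 8 pan-leukocyte and 4 of the 10 stellate cell markers passed the filter only with their labelled knockout values. Stellate cell markers summed to 48.4 to 53.0 and 281.2 to 333.1 TPM, with 10 of 10 higher, B cell markers to 1.11 to 1.78 and 5.88 to 6.92 TPM, and neutrophil markers to 2.10 to 3.74 and 29.2 to 61.1 TPM. Hepatocyte markers summed to 67345 to 88557 and 35766 to 40539 TPM, so the tissue label held in all 6 libraries, and 10 of 13 fell while Hpx rose. Nearly all nucleated cells express class I genes, and the part of these other cells in the rise was not tested.

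The genes whose profile over the 6 libraries was closest to the mean of the 10 were named by a rule. Likeness was the root mean square difference of centred log2(TPM + 1) values from the mean profile, over 7902 candidates outside every list. Candidates were tested genes with a mean of at least 5 TPM, leaving out predicted-gene symbols (Gm and digits, or ending in Rik). Tagap1 came first at 0.02 log2 units, going from 5.61 ± 0.23 to 18.7 ± 2.14 TPM. It was followed by the fatty acid elongase gene Elovl1 and Trip10 (0.04 each), the receptor kinase gene Grk2 (0.04), the BBSome gene Bbip1 and Ttll12 (0.05 each). Among the 10 themselves Tap2 was closest to their mean (0.03) and Tapbp and B2m were farthest (0.47 and 0.41).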

How the data were processed

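Total RNA from snap-frozen liver was made into Illumina libraries, per the labels' protocols. The authors deposited 1 table of TPM values for all 6 libraries. STAR 2.6.1c, RSEM and edgeR, and the build mm10, are named without a role in the submitters' processing notes. TPM keeps no read number, so depth and counting error are unknown, and each value depends on how much of the fixed total the most abundant genes hold. Columns matched the sample titles, with 0 left unmapped.

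Testing covered the 12796 of 55536 genes that reached 1 TPM in 3 or more libraries and used limma 3.58.1 in R 4.3.3, on log2(TPM + 1) with intensity trend and robust variances, all 6 libraries, no block, and Benjamini-Hochberg adjustment at 0.05. The pseudocount understates changes of low genes. For ratios within libraries, exact permutation tests (two-sided, scipy 1.17.1) were adjusted over 7 ratios. Positions came from GENCODE M21 (GRCm38, also called mm10), and upstream sequences from RefSeq on GRCm38.p6. The procedure was also run on simulated data without a shift of most genes, so that run does not bear on the choice of scaling. Figures were drawn with matplotlib 3.10.9 in Python 3.11.15.

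The genes, lists and tests were chosen with earlier results of these data known. The text names all 10 genes, the 3 tested genes with the largest change in each pathway list, a fixed set of 20 pathway genes (some results are not reported here), Vmp1 and the 6 most similar genes. H2-M3, Zbtb22, Hpx, Cd8a, Ifnar1 and Ifnar2, and other genes given only as values, were named after their values were seen. Of the listed names, H2-L, H2-Q8, H2-Q9, H2-T9, Nrdc and Tf matched no row. Alternatives changed scaling, pseudocount, filter, variance model and block, and left out each library.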

Additional observations from a re-analysis of the deposited data

How the results depend on the processing

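All 10 class I presentation genes were called higher under every alternative run except median-of-ratios scaling, which left 8. That scaling gave B2m a log2 fold change of -0.19 (adjusted p = 0.169) and H2-K1 one of 0.33 (adjusted p = 0.0859), and it turned all called genes from 9537 higher and 1369 lower to 4496 and 4689; the cause was not tested. Quantile normalization gave 4520 and 4534. Rescaling without the Mup, mitochondrial and 20 most abundant genes gave 2234 lower, and a minimum mean of 5 TPM gave 6209 higher from fewer genes tested. For the other 8 genes all 15 alternatives kept the direction and the call. With 1 library left out, fold changes of the 10 ranged from 0.66 (B2m) to 2.597 (Tapbp). The difference of the Tap1 to Tap2 log2 ratio ranged from -0.19 to 0.034 with 1 library left out, reversed without labelled knockout replicate 3. The other 6 ratios kept their direction with any 1 library left out. The deviations of same-numbered libraries correlated at 0.076, 0.040 and -0.115, and those of differently numbered libraries at -0.143 to 0.098. No pairing by number was detected, and this check with 3 libraries per group cannot exclude one. A replicate block gave 9427 higher and 1333 lower genes, with 10 of the 10 still higher. Depth is unknown, so values under 1 TPM, such as those of Ifng, carry an unknown counting error.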
